A study of Homo sapiens with 6 samples.

Results

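The 10 genes described here encode proteins that start DNA replication at origins: CDC45, the GINS subunits GINS1, GINS2, GINS3 and GINS4, the origin recognition complex subunits ORC1 and ORC6, the DNA polymerase subunits POLA1 and POLE2, and TICRR, also known as Treslin. They were taken by gene symbol from a table of 19470 symbols, and all 10 were present. RNA sequencing had been done on wild-type A549 cells, an established human lung adenocarcinoma line, in 6 libraries. In 3 of them the cells had been put through a treatment that induces dormancy (titles tagged SF), and in the other 3 they had been activated by osteoclast conditional medium (titles tagged OC), osteoclasts being the cells that resorb bone. The comparison asked which genes differ between dormant and activated cells. The labels used here state neither the means of dormancy induction nor the base media and durations, so the effects of medium and of activation cannot be told apart. They also do not say whether the libraries of a group were separate cultures, and the p-values below therefore reflect a spread that may be technical.

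Replication origins are prepared in G1 phase and used in S phase. The origin recognition complex (ORC), with CDC6 and CDT1, loads the ring-shaped MCM2 to MCM7 helicase onto DNA in an inactive form. Firing begins when kinases and the TICRR, MTBP and TOPBP1 proteins bring CDC45 and the GINS complex to the MCM ring, which together form the active CMG helicase. DNA polymerase alpha-primase then lays down primers and DNA polymerase epsilon extends the leading strand. Many of these genes are known targets of the E2F transcription factors, which are held in check in resting cells.

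Total counts were between 34128471 and 36667725 per library, and the 10 genes together had between 2937 and 3363 counts in dormant libraries and between 13297 and 14567 in activated ones. The epithelial keratins KRT8 and KRT18 had at least 37046 counts in every library, while EPCAM had at most 65. Of the 5 epithelial markers listed, KRT8 (2.07-fold), KRT18 (1.91-fold) and CDH1 (2.37-fold) rose. KRT7 (1.12-fold) and EPCAM (2.10-fold) fell, each with overlapping groups. Markers of cells that could be carried over with the medium were looked at because they bear on the identity of the libraries. For comparison with the marker counts in this paragraph, 36.5% of all tested genes were called higher and 37.2% lower, by the test given below. Of 11 osteoclast markers, TYROBP, DCSTAMP, OCSTAMP and CALCR had 0 counts in all libraries, and of the 7 tested 2 rose and 4 fell. Their summed level was 112 to 114 CPM (counts scaled to the effective library size) in dormant and 211 to 216 CPM in activated libraries, of which TCIRG1, a proton pump subunit not restricted to osteoclasts, had 67.8 ± 1.48 and 197 ± 2.50 CPM. Without TCIRG1 the sum went down, from 44.7 to 46.1 CPM to 16.3 to 17.0 CPM. ATP6V0D2 (mean 19.3 CPM in dormant, 0.0707 CPM in activated libraries), ACP5, NFATC1 and CTSK fell. MMP9, the other marker that rose, was 5.28-fold higher at a low level (mean 0.143 CPM in dormant, 0.770 CPM in activated libraries). OSCAR did not pass, but was called lower with scaling by total counts. Of 12 myeloid markers, AIF1, C1QA, C1QB and C1QC had 0 counts in all libraries, and all 5 that were tested rose, CD68 not passing with scaling by total counts. Their summed level was 136 to 148 CPM in dormant and 166 to 174 CPM in activated libraries, nearly all of it CD68 (1.13-fold). Without CD68 it went from 3.94 to 6.12 CPM to 17.4 to 19.2 CPM, with CD14 8.37-fold, LAPTM5 9.29-fold and CSF1R 8.42-fold higher, the last from dormant counts of 6, 4 and 0. ITGAM rose 1.73-fold. PTPRC (dormant counts 0, 0 and 1, activated 0, 0 and 5), SPI1 (11, 0 and 0 against 1, 5 and 1) and FCER1G (5, 5 and 1 in each group) were too low to be tested. Of 7 osteoblast and stromal markers none was at 0 in all libraries, and of the 4 tested COL1A1, PDGFRA and DCN rose and RUNX2 fell. Their sum was 18.5 to 23.3 CPM in dormant and 17.5 to 18.2 CPM in activated libraries, and without RUNX2 it was 4.76 to 6.52 CPM and 8.87 to 9.36 CPM. DCN had dormant counts of 0, 1 and 0 and activated counts of 12, 22 and 12, and PDGFRA 1, 6 and 6 against 20, 37 and 27. BGLAP (0, 0 and 0 against 1, 0 and 0), SP7 (25, 3 and 2 against 2, 0 and 0) and ALPL (5, 0 and 11 against 2, 8 and 1) were too low to be tested. The part of these lists in the changes below was not tested.

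All 10 genes were higher in activated cells. Their summed level went from 85.8 ± 3.38 CPM (SD, n = 3) in dormant to 408 ± 16.6 CPM in activated libraries, on the scale normalised by trimmed mean of M values (TMM). All 10 had at least 27 counts in every library and passed the filter on low counts. By edgeR's quasi-likelihood F test all 10 were called at a Benjamini-Hochberg adjusted p under 0.05, against 73.7% of the 13336 tested genes in either direction. Of all tested genes 36.5% were called higher and 37.2% lower, so a call alone is common in these data. The sizes were less common: 8 of the 10 genes rose at least 4-fold, as did 3.67% of all tested genes. ORC6 lay near this limit and fell below it with total counts, after a correction for gene length, on the FPKM scales and without dormant replicate 3 (log2 fold change 1.91), which left 7 genes, and TICRR also did with log2(FPKM + 1), which left 6. The median log2 fold change was 2.88 for the 10 genes and -0.02 for all tested genes. The 10 genes were chosen with earlier results of these data known, so these contrasts with all tested genes may partly reflect that choice. In bulk RNA, more cells that express these genes and more of their RNA per cell cannot be told apart.

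**Figure D1:**
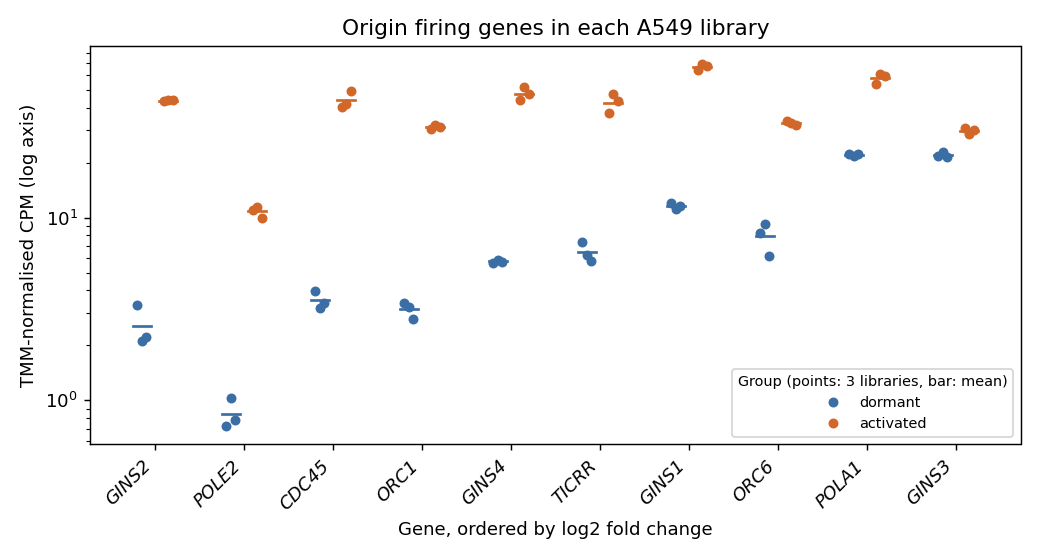
TMM-normalised CPM on a log axis for the 10 origin firing genes, ordered by log2 fold change, with 1 point per library and a bar at the mean of 3 libraries. The dormant and activated points of every gene are apart, widely for GINS2 (2.55 against 43.7 CPM) and narrowly for GINS3 (22.0 against 29.9 CPM). Of all 13336 tested genes, 37.7% also had groups that did not overlap, in the direction of a rise.

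The stretches of promoter below are shown for the 3 genes with the largest rises and the 1 with the smallest, so that the gene that stands apart can be read beside the others. They run from 120 bases before to 20 bases after the annotated start site, 5′ to 3′ on the gene's strand, and come from RefSeq windows on GRCh38.p14. Capitals mark a match to an E2F word or, for CDC45, whose stretch belongs to 1 of its 3 annotated starts, to the first 7 letters of one. For GINS2, POLE2 and GINS3 the word lies on the opposite strand, so its reverse complement is what is printed.
GINS2 (chr16:85688935-85689074, minus strand): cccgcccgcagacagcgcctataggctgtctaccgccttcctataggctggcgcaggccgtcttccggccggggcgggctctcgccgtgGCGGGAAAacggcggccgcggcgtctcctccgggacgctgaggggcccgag
POLE2 (chr14:49688195-49688334, minus strand): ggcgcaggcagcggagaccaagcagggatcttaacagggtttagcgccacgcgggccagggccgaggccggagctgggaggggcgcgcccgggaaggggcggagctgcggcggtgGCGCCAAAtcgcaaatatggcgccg
CDC45 (chr22:19479800-19479939, plus strand): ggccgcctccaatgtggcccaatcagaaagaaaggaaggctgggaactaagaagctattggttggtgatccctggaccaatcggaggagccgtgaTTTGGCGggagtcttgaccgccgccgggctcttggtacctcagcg
GINS3 (chr16:58392351-58392490, plus strand): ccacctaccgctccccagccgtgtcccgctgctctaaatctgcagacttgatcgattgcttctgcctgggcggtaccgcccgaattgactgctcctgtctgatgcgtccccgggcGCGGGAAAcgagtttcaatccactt

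The E2F words searched were TTTCCCGC, TTTCGCGC, TTTGCCGC and TTTGGCGC, on both strands of the RefSeq windows from 250 bases before to 50 bases after a start. Windows were matched for 9 of the 10 genes. A word was found for 5 of these 9, namely GINS1, GINS2, GINS3, POLA1 and POLE2, with 1 match each. The share was 3.31% over all 35116 windows and 6.49% over the 10712 tested genes with a window, counting a gene once if any of its windows held a word. Among the other origin and fork genes listed here with a window, 16 of 32 held one, beside the 5 of 9 above. CDC45, with 3 windows, TICRR, with 2, ORC1 and ORC6 held none of the words. The first 7 letters of the words, a looser search chosen after the windows were seen, were found for 7 of the 9 genes and for 16.0% of tested genes. The genes added were CDC45, in 1 of its 3 windows, and TICRR, in each of its 2 windows. The gene with the largest rise and the gene with the smallest both held the word TTTCCCGC, read on the opposite strand, its match beginning 31 bases before the GINS2 start and 5 bases before the GINS3 start. A match is a run of letters and not a measured binding site.

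Among the helicase activators, CDC45 (chromosome 22, 19479466 to 19520612) is the protein that joins the MCM ring with GINS. Its level was 3.95, 3.22 and 3.41 CPM in the dormant libraries and 40.1, 41.6 and 49.5 CPM in the activated libraries. Activated replicate 3 was the highest library, and the lowest activated library was far above the highest dormant one. The log2 fold change was 3.63 ± 0.11 SE, 12.4-fold (adjusted p = 8.76e-13), and 0.682% of tested genes had a larger rise.

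GINS1 (chromosome 20, 25407673 to 25448563), GINS2 (chromosome 16, 85676198 to 85688954), GINS3 (chromosome 16, 58392471 to 58406147) and GINS4 (chromosome 8, 41529261 to 41545030) encode the PSF1, PSF2, PSF3 and SLD5 subunits of a complex that holds 1 of each. GINS2 had 3.34, 2.11 and 2.21 CPM in dormant and 43.4, 43.8 and 43.8 CPM in activated libraries. Dormant replicate 1 stood above the other dormant libraries, while the activated libraries were nearly equal. Its log2 fold change of 4.09 ± 0.13 SE, 17.1-fold, had the highest value of the 10 genes (adjusted p = 9.53e-13). GINS4 had 5.64, 5.89 and 5.73 CPM in dormant and 43.7, 51.6 and 47.7 CPM in activated libraries, with activated replicate 2 the highest. It rose 8.28-fold (log2 fold change 3.05 ± 0.09 SE, adjusted p = 4.60e-13). GINS1 had 12.0, 11.1 and 11.6 CPM in dormant and 64.2, 69.2 and 67.5 CPM in activated libraries. The spread within each of its groups was small beside the gap, and it rose 5.79-fold (log2 fold change 2.53 ± 0.07 SE, adjusted p = 2.22e-13).

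GINS3 stood apart from the other three. It had 21.7, 22.9 and 21.4 CPM in dormant and 30.8, 28.8 and 30.2 CPM in activated libraries. The groups did not overlap, which was also so, in the direction of a rise, for 37.7% of all tested genes. The log2 fold change was 0.44 ± 0.07 SE, 1.36-fold (adjusted p = 5.79e-05), and 26.8% of tested genes had a larger rise. Its change was the smallest of the 10 genes.

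Per length, the GINS transcripts were less uneven in activated than in dormant cells. On the scale of the deposited FPKM, dormant means were 9.98 ± 0.424 for GINS3, 3.48 ± 0.108 for GINS1, 1.58 ± 0.0504 for GINS4 and 1.02 ± 0.264 for GINS2. Activated means were 18.3 ± 0.701 for GINS1, 15.8 ± 0.0853 for GINS2, 12.3 ± 0.414 for GINS3 and 11.9 ± 0.993 for GINS4. The highest GINS level was 7.39, 12.3 and 11.0 times the lowest within the dormant libraries, always GINS3 over GINS2. In the activated libraries this ratio was 1.61, 1.60 and 1.55, with GINS1 highest each time and GINS4, GINS3 and GINS4 lowest. The span went from 10.2 ± 2.55 to 1.59 ± 0.0302.

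**Figure D2:**
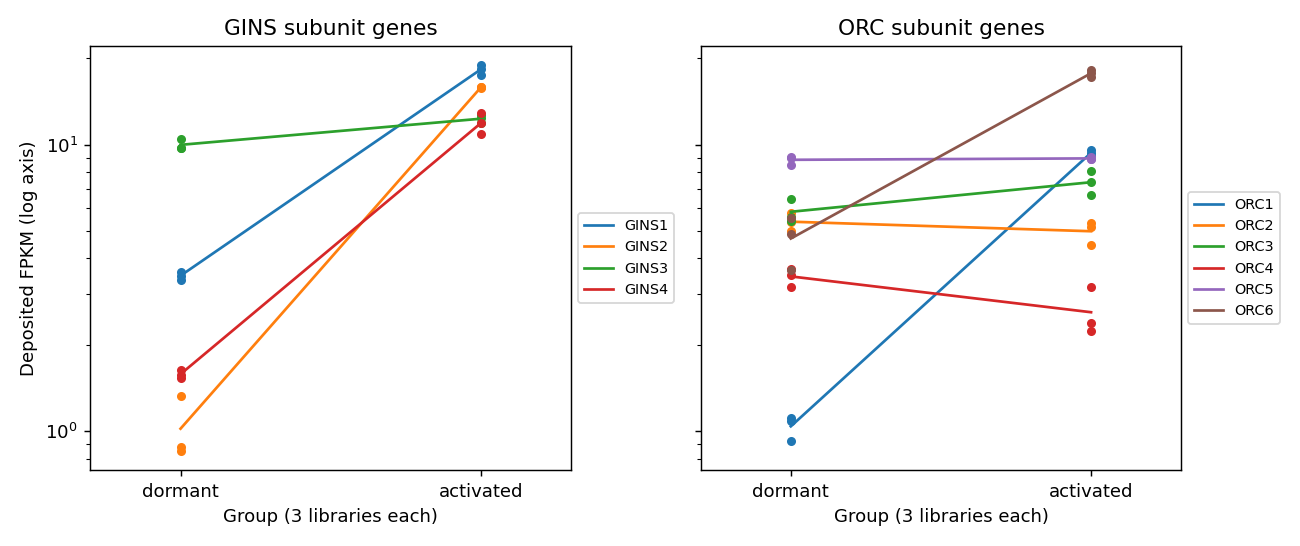
Deposited FPKM on a log axis for the 4 GINS genes (left) and the 6 ORC genes (right) in dormant and activated cells, with 1 point per library and lines joining the means of 3 libraries. The GINS lines converge from a span of 10.2 to a span of 1.59, and ORC1 and ORC6 rise across the flatter lines of the other ORC genes.

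Ratios between genes of 1 library do not depend on the scaling between libraries, and 12 such ratios were tested on the log2 scale with a two-sided exact permutation test of 3 against 3 libraries, whose smallest possible p is 0.1. No ratio could therefore pass 0.05. Over the mean of the other GINS genes, GINS3 went from 2.50 ± 0.156 to -0.29 ± 0.109 (log2, exact p = 0.1, adjusted p = 0.109 over the 12 ratios), which is 6.91-fold lower. GINS2 over the others went from -1.92 ± 0.362 to 0.19 ± 0.0354, 4.33-fold higher, and GINS4 from -1.05 ± 0.159 to -0.37 ± 0.116, 1.60-fold higher, with the same exact p. In these 3 ratios the groups did not overlap. GINS1 over the others went from 0.47 ± 0.0731 to 0.47 ± 0.0284, its groups overlapped, and the exact p was 1. CDC45 over the mean of the GINS genes went from -0.83 ± 0.0692 to 0.26 ± 0.154, 2.13-fold higher, without overlap (exact p = 0.1).

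ORC marks origins and binds them as a ring of subunits, of which ORC1 is the one known to be degraded and made anew in each cell cycle, and ORC6 is held more loosely by the rest. ORC1 (chromosome 1, 52372829 to 52409503) had 3.39, 3.24 and 2.80 CPM in dormant and 30.5, 32.0 and 31.2 CPM in activated libraries. Dormant replicate 3 was the lowest of its group, and the gene rose 9.91-fold (log2 fold change 3.31 ± 0.11 SE, adjusted p = 1.09e-12). ORC6 (chromosome 16, 46689659 to 46698394) had 8.28, 9.23 and 6.15 CPM in dormant and 33.8, 32.8 and 32.0 CPM in activated libraries. Dormant replicate 3 was the lowest, and the rise was 4.16-fold (log2 fold change 2.05 ± 0.12 SE, adjusted p = 7.13e-10).

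The other ORC subunits changed less than ORC1 and ORC6. ORC2 had 22.9 ± 1.54 CPM in dormant and 23.4 ± 2.10 CPM in activated cells, a log2 fold change of 0.03 ± 0.09 SE (adjusted p = 0.772), and its sign turned with total counts (-0.11). ORC3 rose 1.40-fold, from 19.4 ± 1.74 to 27.1 ± 2.58 CPM (adjusted p = 0.000253), close to the 1.36-fold of GINS3. ORC5 went from 33.3 ± 0.945 to 37.1 ± 0.447 CPM, a 1.11-fold rise (adjusted p = 0.0353). Under total counts ORC5 had a value of 0.02 on the log2 scale and was no longer called (adjusted p = 0.827). Nor was it called on the FPKM scales (adjusted p from 0.783 to 0.807) or with upper-quartile factors (adjusted p = 0.0754). It also lost its call without any single library other than activated replicate 1 (adjusted p from 0.051 to 0.105). ORC4 went from 23.0 ± 1.57 to 19.0 ± 3.74 CPM, with overlapping groups. It passed narrowly (log2 fold change -0.28 ± 0.12 SE, adjusted p = 0.0452), and its call ended with DESeq2 size factors (adjusted p = 0.0524), with DESeq2 (0.0598), after a correction for gene length (0.262) and without any of 4 single libraries, dormant replicate 1 or 2 or activated replicate 2 or 3 (0.114, 0.14, 0.17 and 0.173). Without activated replicate 1 the log2 fold change of ORC4 was -0.45. LRWD1, a protein that binds ORC on chromatin and is named after its values were seen, went from 37.7 ± 0.405 to 40.0 ± 3.62 CPM (adjusted p = 0.288), and was called higher without activated replicate 1 (log2 fold change 0.16, adjusted p = 0.0381). In dormant cells ORC1 had the lowest ORC level per length, 1.04 ± 0.101 FPKM, against 3.46 ± 0.249 for ORC4 and 8.84 ± 0.318 for ORC5. In activated cells ORC1 had 9.36 ± 0.240 FPKM, close to ORC5 at 8.95 ± 0.103, and ORC6 had 17.7 ± 0.512. Over the mean of ORC2 to ORC5 within a library, ORC1 went from -2.42 ± 0.123 to 0.80 ± 0.137 (log2), 9.30-fold higher, and ORC6 from -0.26 ± 0.242 to 1.72 ± 0.0693, 3.95-fold higher, each without overlap (exact p = 0.1, adjusted p = 0.109).

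TICRR (chromosome 15, 89575469 to 89628023) is the scaffold through which cyclin-dependent kinase permits CDC45 to be loaded. It had 7.40, 6.23 and 5.82 CPM in dormant and 37.2, 47.3 and 43.4 CPM in activated libraries. Activated replicate 1 was the lowest of its group and still above all dormant libraries, and the gene rose 6.57-fold (log2 fold change 2.72 ± 0.11 SE, adjusted p = 1.61e-11). Its binding partners rose less: MTBP went from 3.62 ± 0.501 to 7.74 ± 1.12 CPM, 2.13-fold (adjusted p = 4.22e-05), and TOPBP1 from 38.6 ± 1.55 to 78.7 ± 3.50 CPM, 2.04-fold (adjusted p = 7.05e-10). TICRR over the mean of these partners went from -1.25 ± 0.0786 to 0.40 ± 0.104 (log2), 3.15-fold higher and without overlap (exact p = 0.1).

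POLA1 (chromosome X, 24693918 to 24996986), the catalytic subunit of DNA polymerase alpha, had 22.3, 21.6 and 22.2 CPM in dormant and 53.9, 61.2 and 59.5 CPM in activated libraries. The dormant libraries were nearly equal and activated replicate 1 was the lowest of its group. POLA1 rose 2.64-fold (log2 fold change 1.40 ± 0.07 SE, adjusted p = 9.38e-11). POLA2, the regulatory subunit, rose 5.73-fold, PRIM1, the catalytic primase subunit, 3.60-fold, and PRIM2, the large primase subunit, 2.66-fold (adjusted p = 2.0e-12, 2.30e-10 and 6.52e-08). POLA1 over the mean of these partners fell from -0.03 ± 0.192 to -0.57 ± 0.104 on the log2 scale, 1.45-fold lower, without overlap but with the exact p at its floor of 0.1. PRIM2 has a near-identical partial copy in the genome, so its value is uncertain.

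POLE2 (chromosome 14, 49643555 to 49688214), the second subunit of DNA polymerase epsilon, had the fewest counts, 27, 40 and 28 in dormant and 377, 399 and 325 in activated libraries. These were 0.721, 1.03 and 0.783 CPM against 11.0, 11.5 and 9.90 CPM. Dormant replicate 2 was the highest of its group, at a level far below any activated library. POLE2 rose 12.7-fold (log2 fold change 3.67 ± 0.19 SE, adjusted p = 2.26e-10), with the widest standard error of the 10 genes. Its catalytic partner POLE rose 3.74-fold, from 33.6 ± 0.802 to 126 ± 19.3 CPM, while the small histone-fold subunits POLE3 and POLE4 rose 1.35-fold and 1.70-fold (adjusted p = 7.11e-11, 2.37e-06 and 1.13e-05). POLE2 over the mean of the 3 partners went from -4.89 ± 0.264 to -2.25 ± 0.0568 (log2), 6.25-fold higher and without overlap (exact p = 0.1). Per length it stayed the lowest of the complex, at 5.28 ± 0.404 FPKM in activated cells against 13.5 ± 2.09 for POLE and 53.2 ± 1.20 for POLE3.

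**Figure D3:**
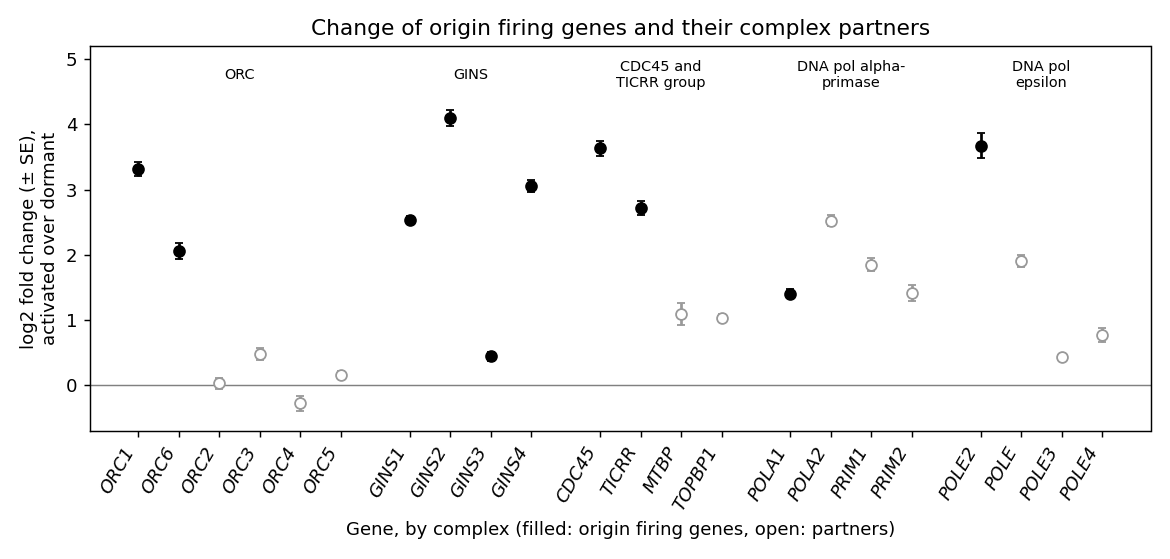
Log2 fold change of activated over dormant cells with its standard error for the 10 origin firing genes (filled) and their partners (open), grouped by complex, from 3 libraries per group. ORC1 and ORC6 lie at 3.31 and 2.05 while ORC2 to ORC5 lie between -0.28 and 0.48, and GINS3 at 0.44 lies below the other GINS genes.

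Ordered by level per length in dormant cells, GINS3 was followed by ORC6 (4.70 ± 0.962 FPKM), GINS1, POLA1 (2.49 ± 0.0188), GINS4, CDC45 (1.53 ± 0.152), ORC1, GINS2, TICRR (1.0 ± 0.121) and POLE2 (0.455 ± 0.0923). Ranges of neighbours overlapped between GINS4 and CDC45, between ORC1 and GINS2 and between GINS2 and TICRR. In activated cells the order was GINS1, ORC6, CDC45 (17.3 ± 1.98), GINS2, GINS3, GINS4, ORC1, POLA1 (5.98 ± 0.397), TICRR (5.98 ± 0.717) and POLE2. There the libraries of GINS1, ORC6, CDC45 and GINS2 overlapped from each to the next, as did GINS3 with GINS4, POLA1 with TICRR and TICRR with POLE2.

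**Figure D4:**
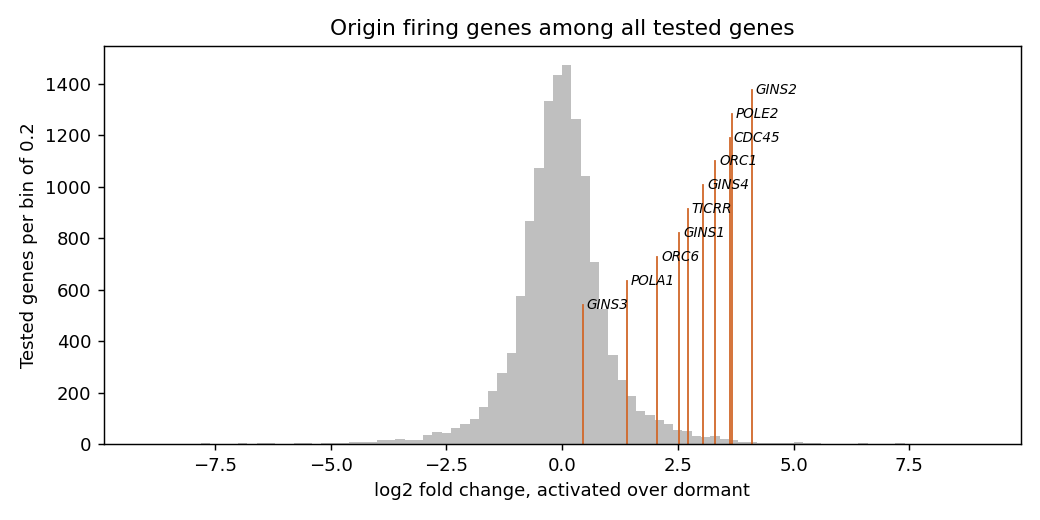
Histogram of log2 fold changes, activated over dormant, for 13336 tested genes in bins of 0.2 (grey), with a line at the value of each of the 10 origin firing genes (line height only separates the names). GINS3 at 0.44 lies inside the bulk and GINS2 at 4.09 in the right tail, where 0.495% of tested genes had a larger rise.

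Of 38 other genes of origin licensing, firing and fork work, 34 rose, 1 fell and 3 did not pass, with a median log2 fold change of 1.32. Over all tested genes 36.5% were called higher and 37.2% lower, so here too a call alone is common. All 10 licensing genes rose (median 2.0). Among them CDC6, the loader of MCM rings, went from 6.42 ± 0.231 to 128 ± 2.85 CPM, and MCM6, a ring subunit, from 19.4 ± 1.93 to 113 ± 6.66 CPM. Of 10 other firing factors and kinases, 9 rose and 1 did not pass (median 1.16). RECQL4, a helicase that takes part in CMG assembly, rose 9.95-fold and MCM10, which helps to activate the assembled helicase, 9.68-fold, while RIF1, which opposes firing by recruiting a phosphatase and is named after its values were seen, went from 69.0 ± 2.20 to 66.3 ± 11.1 CPM (adjusted p = 0.58). CDC7, the kinase that phosphorylates the MCM ring, and its activating subunit DBF4, both chosen after their values were seen, rose 3.46-fold and 1.40-fold.

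All 3 fork protection genes rose (median 1.90), with CLSPN, the checkpoint adaptor Claspin, going from 2.05 ± 0.102 to 47.4 ± 2.21 CPM and TIMELESS, which travels with the fork, from 33.4 ± 1.46 to 125 ± 3.76 CPM. All 10 other replicative polymerase subunits rose (median 1.27), led by POLD1, the catalytic subunit of DNA polymerase delta (6.32-fold), and POLA2. POLD4, an accessory delta subunit chosen after its values were seen, rose only 1.11-fold (adjusted p = 0.0189). It was no longer called under total counts (adjusted p = 0.943), on the FPKM scales (0.938 to 0.940) or after the length correction (0.601). The same was so without dormant replicate 3 (0.0731) or activated replicate 3 (0.0688). Of the 5 genes of ORC outside the 10, 2 rose, 1 fell and 2 did not pass (median 0.09), as given above.

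The mean of the 10 genes over the mean of MCM2 to MCM7 within a library went from -2.83 ± 0.0914 to -2.19 ± 0.0119 (log2), 1.56-fold higher. Over MKI67, a marker of cycling cells, it went from -1.63 ± 0.0860 to -1.06 ± 0.139, 1.48-fold higher. MKI67 itself rose 4.39-fold, from 72.1 ± 2.25 to 317 ± 39.5 CPM. Neither ratio overlapped between groups, and each had an exact p of 0.1. The choice of the 10 genes with earlier results known may also bear on these ratios.

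Within groups the 10 genes did not all deviate together. In dormant replicate 3, 2 of 10 were above their group mean, against 7 in dormant replicate 1. In activated replicate 1, 3 of 10 were above it, against 7 and 8 in replicates 2 and 3. The mean deviations of these libraries were small, between -0.10 and 0.08 on the log2 scale. The genes whose log2 CPM across the 6 libraries was most like the mean of the 10 were GYS1, ESPL1, FILIP1, MELK and CSE1L, with Pearson r from 0.99974 to 0.99996. Over 6 libraries that fall into 2 groups such values mostly reflect the difference between groups, and 1138 of 10957 genes compared reached 0.99.

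Several values rest on transcripts that overlap other genes in GENCODE 29. For GINS4, 23.6% of exon bases lie under antisense genes on the opposite strand, for GINS3 10.9%, and for TICRR 7.01% under KIF7. The strand setting of the counting is not stated, so reads there cannot be told apart. Among the partners, 35.1% of the exon bases of POLA2 and 21.6% of those of PRIM1 are shared with other annotated genes, mostly on the same strand.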

How the data were processed

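Per the labels' protocols, TRIzol was used to extract total RNA and a VAHTS Universal V6 kit to prepare the libraries. The authors deposited whole-number counts per gene symbol and an FPKM table that held the same counts over a gene length and the total count, since this was so within 1% for every gene with at least 100 counts. The tools fastp, HISAT2 and HTSeq and the build GRCh38 are named, per the submitters' processing notes, without versions, annotation or strand setting.

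Counts were tested with edgeR 4.0.16 (R 4.3.3): TMM factors (0.952 to 1.06), the default filter on low counts, quasi-likelihood F test and Benjamini-Hochberg adjustment over 13336 genes, threshold 0.05, checked on simulated counts. The standard error was the log2 fold change over the square root of F. Ratios within a library used counts plus 0.5 per length. Locations are RefSeq, GRCh38.p14, 1-based. Named genes were the 10 genes, their complex partners, MKI67, the 5 genes most alike in profile and, per list, the 2 largest changes in the majority direction and the largest in the other. Members and lists were chosen with earlier results of these data known. Alternatives were other scalings, DESeq2 1.42.0, limma 3.58.1 (voom, or log2(FPKM + 1) and log2(FPKM + 0.1)), other filters, a replicate block, a length correction and leaving out each library.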

Additional observations from a re-analysis of the deposited data

How the results depend on the processing

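All 10 origin firing genes were called higher under all 18 alternatives, and all 180 of their values kept direction and side of the threshold. On the log2 scale GINS3 ranged from 0.28 to 0.47, GINS2 from 3.07 to 4.34 and POLE2 from 2.11 to 3.84, the low end of GINS2 and POLE2 being with log2(FPKM + 1). Total counts moved the median of all genes by -0.14 and the split of calls from 4868 higher and 4962 lower to 3942 and 5998. Leaving out 1 library gave 4625 to 4836 higher and 4645 to 4920 lower. The replicate block gave 4847 and 4942 and changed no call of the named genes. Deviations of libraries sharing a number correlated at -0.0152, 0.019 and -0.00572, so pairing by number was not assumed. Among the 5 other ORC genes, 1 and not 2 rose with total counts, upper-quartile factors and the FPKM fits, 0 fell with DESeq2 size factors, DESeq2 and the length correction, and leaving out 1 library gave 1 to 3 higher and 0 to 1 lower. Other firing factors had 0 to 1 lower, RIF1 passing without activated replicate 2 (-0.19, adjusted p = 0.012), and LRWD1 passed without activated replicate 1 (0.16, adjusted p = 0.0381). Signs turned for ORC2 (-0.11 with total counts and log2(FPKM + 0.1), -0.094 with log2(FPKM + 1) with or without the filter, -0.019 to 0.103 leaving out 1 library), LRWD1 (-0.054 with total counts and log2(FPKM + 1), -0.057 with log2(FPKM + 0.1), -0.018 with the length correction) and RIF1 (0.076 with the length correction, 0.047 without activated replicate 1). The log2 change of the GINS1 ratio ranged from -0.038 to 0.034 leaving out 1 library. The cause was not tested. POLE2 had the fewest counts and the widest standard error of the 10 genes, and the effect of depth was not tested.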
